A study of Mus musculus with 2 samples.

Results

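The 9 genes described here encode the transcription factors that set muscle identity and run the muscle differentiation programme: the paired-box genes Pax7 and Pax3, the myogenic regulatory factor (MRF) genes Myf5, Myod1, Myog and Myf6, and the MEF2 genes Mef2a, Mef2c and Mef2d. They were taken by name from the 21938 protein-coding genes of the annotation, not by their values, although earlier results of these data were known. For each gene the positions of YY1 were read in 3 ways: a peak summit within 1000 bp of a transcript start (called a promoter summit), a summit inside the gene, and the distance to the nearest summit on either side.

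YY1 is a zinc-finger transcription factor that can activate or repress its targets. In ChIP-seq, DNA is pulled down with an antibody to a protein and sequenced, and fragments pile up where the protein sat. Here 1 library made with a YY1 antibody was compared by the authors with 1 background library, and the resulting peaks were used. The chromatin came from MuSCs, the resident stem cells of skeletal muscle, of control (Ctrl) mdx mice, which carry the mdx mutation from the C57BL/10 ScSn DMDmdx (mdx) strain, a Pax7 CreERT2 allele with the R26YFP reporter and normal Yy1 (Yy1+/+). Cells of several mice were pooled. The study's text calls the cells freshly isolated, while the sample labels speak of cultured cells and of WT MuSC. The background library is input in the labels and IgG in the Methods. The CreERT2 allele sits at Pax7, which is itself among the 9 genes. Without replicates, the spread between mice is unknown, and the intervals given are for counting error alone. Peaks report where YY1 was found on DNA and say nothing of RNA levels. For the same reason they could not check the cell type: a promoter summit was found for 1 of 12 MuSC marker genes (Pax7), 0 of 5 markers of fibro-adipogenic progenitors, 1 of 5 macrophage markers (Cd68) and 0 of 3 endothelial markers, beside 18.8% of all protein-coding genes.

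PAX3 and PAX7 stand at the top of the myogenic cascade. PAX7 marks adult MuSCs and is needed to maintain them, and PAX3 acts mainly in the embryo. The MRFs are basic helix-loop-helix (bHLH) proteins that bind E-boxes together with E proteins: MYF5 and MYOD1 commit cells to the muscle lineage, myogenin (Myog) drives differentiation and MYF6 (MRF4) acts in differentiating and mature fibres. MEF2 proteins are MADS-box factors that do not start the programme but work with the MRFs on muscle gene promoters, and class IIa histone deacetylases hold them in check. YY1 is known from work on muscle cells as a repressor of differentiation genes.

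YY1 peaks covered the starts of Mef2a and Mef2d, a peak in intron 1 of Pax7 lay within 1000 bp of its second start, and none was near the starts of the 4 MRF genes. A promoter summit was therefore called at 3 of the 9 genes (33.3%), beside 4119 of the 21938 protein-coding genes (18.8%). The Pax7 call was lost under 5 of 13 alternative settings. Of these 5, 2 were set after seeing the data and remove it by construction: use of the first start alone and a limit on the background. By family this was 1 of 2 PAX genes, 0 of 4 MRF genes and 2 of 3 MEF2 genes. Since the genes were chosen with earlier results of these data known and there is 1 library, no test was made. A summit lay inside 1 of the 9 genes, Pax7, beside 13.7% of the protein-coding genes. The 4 MRF genes are short, 1.89 to 3.23 kb, whereas Pax7 and Pax3 span 96.5 and 95.9 kb, Mef2a 142 kb, Mef2c 163 kb and Mef2d 29.7 kb. No summit lay within 300 kb of any start of 5 of the 9 genes, namely Pax3, Myf5, Myod1, Myf6 and Mef2c, while 27.9% of the protein-coding genes were that far from YY1. The nearest summit was 343 kb away at the median of the 9 genes and 93.7 kb away at the median of all protein-coding genes. The genes thus fell into 3 with YY1 within 703 bp, 1 (Myog) at 71.9 kb and 5 beyond 300 kb.

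**Figure D1:**
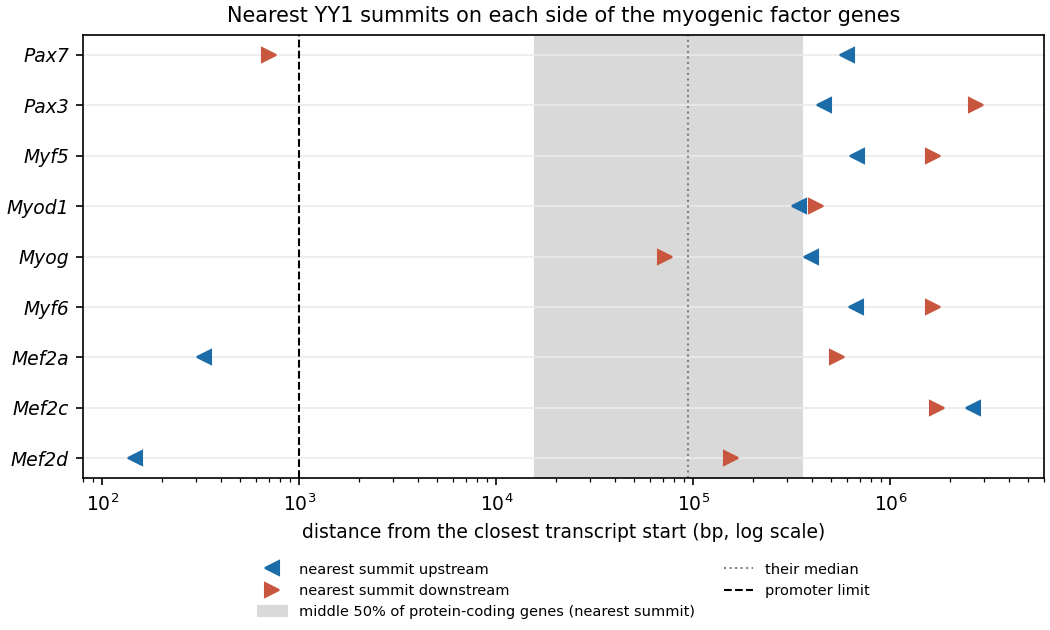
Distance in bp (log scale) from the closest transcript start of each of the 9 genes to the nearest YY1 summit upstream (blue) and downstream (red). The dashed line is the 1000 bp promoter limit, the grey band the middle 50% of protein-coding genes and the dotted line their median of 93.7 kb. Pax7, Mef2a and Mef2d have a summit left of the dashed line, and for Pax3, Myf5, Myod1, Myf6 and Mef2c both summits lie beyond 300 kb.

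The stretches around the Mef2a and Mef2d summits are shown because there YY1 lay upstream of the gene under a peak that covers its start. Each run is 151 bases of GRCm38 (the sequence of mm10), 75 bases to each side of the summit, read in the direction of the gene, with every CG dinucleotide in capitals. The Mef2a run lies upstream of the gene at chr7:67373109-67373259, minus strand, and the Mef2d run upstream of the gene at chr3:88142151-88142301, plus strand.
Mef2a summit: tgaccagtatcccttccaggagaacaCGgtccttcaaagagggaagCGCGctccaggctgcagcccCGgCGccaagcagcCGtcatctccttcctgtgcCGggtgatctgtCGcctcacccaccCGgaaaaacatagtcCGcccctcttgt
Mef2d summit: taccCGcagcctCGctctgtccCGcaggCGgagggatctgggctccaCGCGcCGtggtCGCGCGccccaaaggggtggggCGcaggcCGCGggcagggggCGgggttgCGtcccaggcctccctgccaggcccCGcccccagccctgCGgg
The Mef2a run holds 10 CG and the Mef2d run 17. Within 100 bp to each side of the summits the GC content was 62.7% at Mef2a and 76.1% at Mef2d, beside a median of 69.7% over all 4681 peaks. A lower GC content than at Mef2a was found in 24.3% of the peaks and a lower one than at Mef2d in 78.9%. The CpG content of the windows as observed over expected was 0.693 at Mef2a and 0.584 at Mef2d, with lower values in 19.0% and 13.3% of the peaks and a median of 0.92. Over the whole peaks it was 0.919 at Mef2a and 0.854 at Mef2d.

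The YY1 motif named in the study, AANATGGC, was searched on both strands and was not among the letters of either window. It was present within 100 bp of the summit in 310 of the 4678 peaks without unknown bases (6.63%), with 0 matches at Mef2a and 0 at Mef2d. The core ATGGC, which is contained in it, was present in 29.9% of all peaks at that distance, again with 0 matches at both genes. The shorter ATGG was present in 56.2% of all peaks, at Mef2d and not at Mef2a. In the whole peaks ATGG had 1 match at Mef2a and 3 at Mef2d and was present in 76.8% of all peaks, whose widths differ. The E-box CANNTG, the sequence that MRF and E proteins bind, was present within 100 bp of the summit in 40.8% of all peaks. It was found there at Mef2a and not at Mef2d.

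Pax7 (chromosome 4, 139737062 to 139833528, minus strand), the defining factor of MuSCs, carried a peak of 352 bp. The summit lay in intron 1, 523 bp past the end of exon 1 and 1931 bp before exon 2, and the peak covered no transcript start. It was 1224 bp downstream of the first start, whose transcript has the best support level (1), and 703 bp downstream of the second, whose transcript has support level 5. The RefSeq start was 664 bp away. Pax7 was therefore called by its second start and not by its first.

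The Pax7 peak was built on more fragments than nearly all others and on a high background. It held 117 YY1 fragments at the summit (95% exact Poisson interval 96.8 to 140) over a local background of 43.5, whereas the median peak held 14 fragments over 1.98. What part this background, or the CreERT2 allele that the mice carry at this gene, has in the Pax7 peak was not tested. The background equals 44.0 times 0.988, the weight of 1 background fragment in the deposited values. More fragments were found in 0.855% of the peaks and a higher background in 0.876%. Fold enrichment, which the peak caller computes as fragments plus 1 over background plus 1, was 2.65, and 1.58% of the peaks had a lower value. Its −log10 p-value was 20.1, and 2.58% of the peaks had a smaller p-value. At this background 70 fragments would have passed the peak caller's limit of 0.0001. At the most frequent background, 1.54 fragments, 8 fragments were needed.

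Mef2a (chromosome 7, 67231163 to 67372858, minus strand) and Mef2d (chromosome 3, 88142372 to 88172086, plus strand) carried broad peaks over their starts. The Mef2a peak ran from 67372439 to 67373357 (919 bp), and 2.31% of all peaks were wider. It covered the start that all 4 of its transcripts share and 146 bases of exon 1, with the summit 326 bp upstream. It held 19 fragments (11.4 to 29.7) over a background of 2.96, and its fold enrichment was 5.05 with a −log10 p-value of 10.2. The Mef2d peak ran from 88142057 to 88142757 (701 bp), and 7.69% of all peaks were wider. It covered 303 bases of exon 1, with the summit 146, 190 and 346 bp upstream of the 3 starts of the gene. It held 14 fragments (7.65 to 23.5) over 1.83, and its fold enrichment was 5.31 with a −log10 p-value of 8.93.

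Mef2a and Mef2d were ordinary peaks in height: 48.3% of all peaks had a lower fold than Mef2a and 57.9% a lower fold than Mef2d. Fragments over background, without the added 1, came to 7.67 at Mef2d (interval 4.19 to 12.9), 6.41 at Mef2a (interval from 3.86 upward) and 2.69 at Pax7 (interval 2.23 to 3.23). The Mef2a value lay inside the interval of Mef2d, so these neighbours did not differ beyond counting error, and the interval of Pax7 lay below those of both. These intervals take the background as known, although it was small at Mef2a (2.96 fragments) and Mef2d (1.83). Error in the background would widen them, so a difference of Pax7 from both was not shown. In absolute fragments the order was the opposite, with Pax7 well above both MEF2 genes.

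**Figure D2:**
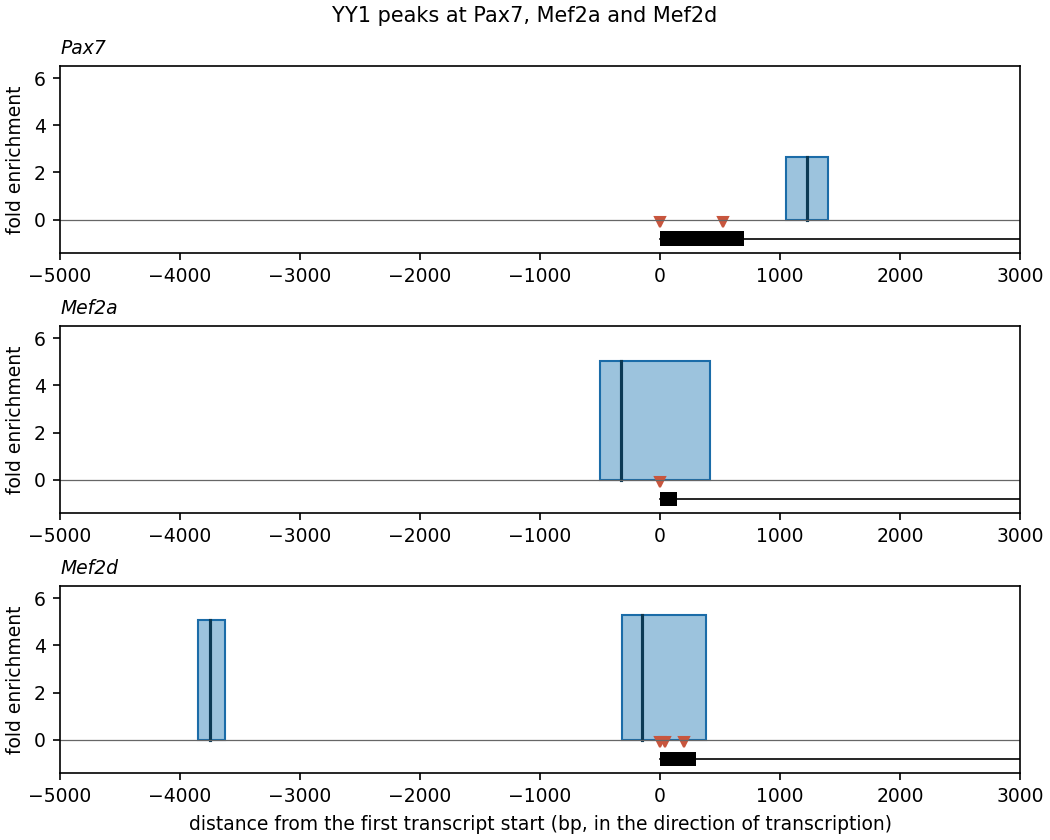
YY1 peaks (blue boxes, dark line at the summit) around the first transcript start (position 0, in bp) of Pax7, Mef2a and Mef2d, with box height giving the fold enrichment. Red triangles are transcript starts, the black box is exon 1 and the thin line the gene. The Mef2a and Mef2d peaks cover starts, the Pax7 peak lies downstream of exon 1 with a fold of 2.65, and a further Mef2d peak lies 3754 bp upstream.

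Mef2d had a further summit 3754 bp upstream of its start, outside the promoter limit (chromosome 3, 88138521 to 88138749, 229 bp), with 17 fragments over 2.55 and a fold of 5.07. No transcript start lay within 1000 bp of it, and the closest start of any gene was that of Mef2d. A summit at the start of Naxe lay 84.1 kb upstream of Mef2d (12 fragments over 1.98, fold 4.37). On the downstream side the nearest summit was 154 kb away, within 1000 bp of starts of Tsacc and Cct3. Mef2d had 11 summits within 1 Mb of its starts, Pax7 had 10 and Mef2a 3. At Mef2a the nearest summit downstream was 533 kb away at the start of Adamts17 (11 fragments over 1.54), and at Pax7 the nearest one upstream was 601 kb away in no gene (11 fragments over 1.54, fold 4.73). The Pax7 and Mef2a promoter summits were the only ones within 100 kb of the starts of these genes.

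**Figure D3:**
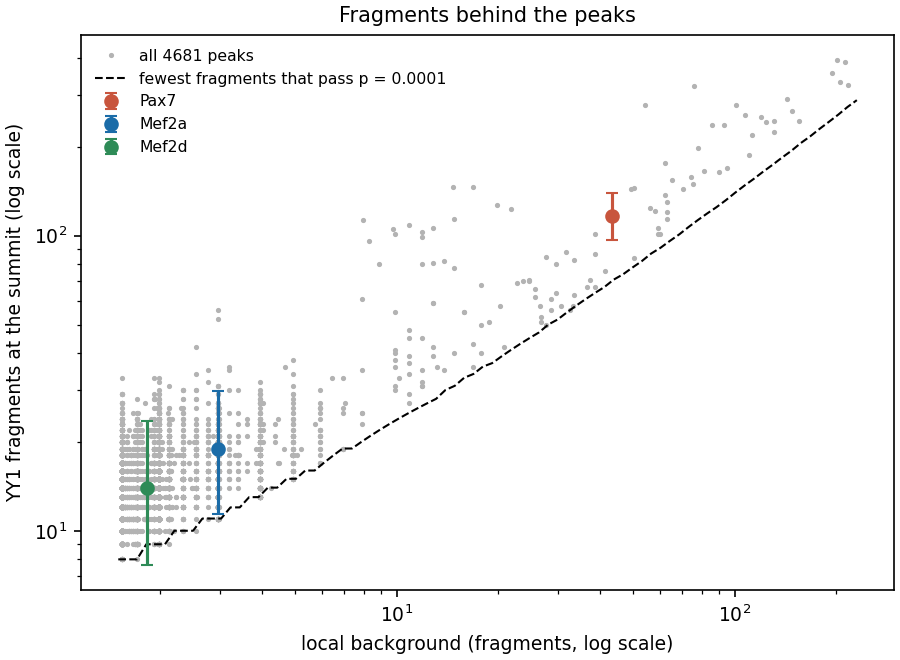
YY1 fragments at the summit against the local background in fragments (both log scales) for all 4681 peaks (grey), with Pax7, Mef2a and Mef2d in colour and bars giving 95% exact Poisson intervals of the fragments. The dashed line is the fewest fragments that pass the limit of 0.0001. Mef2a and Mef2d lie in the main cloud at 19 and 14 fragments, and Pax7 lies with the few peaks of high background at 117 fragments over 43.5.

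Mef2c (chromosome 13, 83504034 to 83667080, plus strand), the MEF2 gene with the most annotated starts, was the farthest of the 9 from YY1. Its 13 transcripts have 11 starts, and no summit lay within 1 Mb of any of them. The nearest was 1714 kb downstream of the last of these starts, at the start of Rasa1, a regulator of RAS signalling (85289023 to 85289689, 19 fragments over 1.66, fold 7.53). Upstream the nearest was 2618 kb away at the start of Arrdc3 (16 fragments over 4.94, fold 2.86). A greater distance was found for 5.49% of the protein-coding genes, and measured from the first start of the gene the distance was 1785 kb. Mef2c thus differed from Mef2a and Mef2d, which had YY1 on their starts.

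Pax3 (chromosome 1, 78101267 to 78197134, minus strand) had neither a promoter summit nor one inside the gene. The nearest was 461 kb upstream at the start of Acsl3, which encodes an acyl-CoA synthetase and shares this start region with Utp14b (12 fragments over 1.98, fold 4.37). On the downstream side the nearest was 2718 kb away, within 1000 bp of starts of Chpf and Tmem198 (16 fragments over 1.98, fold 5.71). The Acsl3 summit was the only one within 1 Mb of Pax3. Of the protein-coding genes, 20.8% lay farther from YY1 than Pax3 and 81.7% farther than Pax7.

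Myf5 (chromosome 10, 107482908 to 107486134) and Myf6 (107492853 to 107494737) lie next to each other on the minus strand, and the same 2 peaks flanked both. The upstream one was at the start of Ppp1r12a, a subunit of myosin phosphatase (108161858 to 108162238, 21 fragments over 2.96, fold 5.55), 676 kb from Myf5 and 667 kb from Myf6. The downstream one, within 1000 bp of starts of Mettl25 and Ccdc59, was 1645 kb from Myf5 and 1653 kb from Myf6, with 29 fragments over 1.98 and a fold of 10.1. The Ppp1r12a summit was the only one within 1 Mb of either gene, so these values describe 1 locus and not 2 independent cases.

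Myod1 (chromosome 7, 46376474 to 46379099, plus strand) had 9 summits within 1 Mb and none within 300 kb. The nearest lay 343 kb upstream at the start of Nomo1 (16 fragments over 1.98, fold 5.71) and 420 kb downstream within 1000 bp of starts of Hps5 and Gtf2h1 (16 fragments over 1.54, fold 6.70). Of the protein-coding genes, 25.6% lay farther from YY1.

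Myog (chromosome 1, 134289989 to 134292548, plus strand) was the MRF gene closest to YY1. Its nearest summit was 71.9 kb downstream of its start, 96 bp inside Tmem183a, at 134361706 to 134362055 (15 fragments over 2.34, fold 4.80). Upstream the nearest was 397 kb away in no gene, with 11 fragments over 2.96 and a fold of 3.03. There were 9 summits within 1 Mb, and 55.0% of the protein-coding genes lay farther from YY1 than Myog. All but 1 of the summits nearest to the Pax3, MRF and Mef2c genes on either side were within 1000 bp of the start of another gene. Myf5 and Myf6 share theirs. The same share over all peaks was not computed, so this cannot be read as particular to these genes.

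The peak list holds only what passed the limit, so a gene without a peak is a gene without enough fragments and not a gene without YY1. Over a background of 1.54 fragments, the most frequent value (1370 of 4681 peaks), a site needed 8 fragments and a fold of 3.55, and over the median background of 1.98 it needed 9. Weaker binding at the MRF genes, Pax3 or Mef2c was not detectable at this depth. Across all peaks the fragments at the summit ran from 8 to 394 and the fold from 1.49 to 14.4, with a median of 5.10.

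The 3 genes with a promoter summit were then set beside the other genes by promoter composition. RefSeq promoters (GRCm38.p6), from 250 bases before to 50 after a start, were matched for 6 of the 9 genes, Pax7, Myf5, Myog, Mef2a, Mef2c and Mef2d, with 8 promoters in all. The genes not matched were Pax3, Myod1 and Myf6. To show how the promoters differ, 120 bases are printed for a gene with a promoter summit and for 2 MRF genes without a called peak, from 150 to 31 bases before the RefSeq start, in the direction of the gene and with CG in capitals. They are Mef2a at chr7:67372889-67373008 (minus strand), Myog at chr1:134289854-134289973 (plus strand) and Myf5 at chr10:107486165-107486284 (minus strand).
Mef2a promoter: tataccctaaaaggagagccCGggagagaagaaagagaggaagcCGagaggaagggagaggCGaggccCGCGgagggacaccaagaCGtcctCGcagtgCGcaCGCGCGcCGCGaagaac
Myog promoter: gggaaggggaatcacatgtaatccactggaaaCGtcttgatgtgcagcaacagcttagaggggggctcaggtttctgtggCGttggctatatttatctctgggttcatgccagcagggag
Myf5 promoter: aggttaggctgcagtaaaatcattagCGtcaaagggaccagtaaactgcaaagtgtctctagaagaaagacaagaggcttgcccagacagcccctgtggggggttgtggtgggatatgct
The Mef2a stretch holds 13 CG, the Myog stretch 2 and the Myf5 stretch 1, and the same stretch of Mef2d, which has a promoter summit too and is not printed, holds 8. Mef2a is the matched gene with the highest CpG content, so it does not stand for Mef2d or Pax7. Over the whole promoters, the CpG content as observed over expected was 0.929 at Mef2a, 0.619 at Mef2d, 0.581 at Pax7, 0.373 at Myog and 0.163 at Myf5. The 3 promoters of Mef2c gave 0.109, 0.612 and 0.228, so Mef2c, which has no called peak, reached the level of Mef2d with 1 of its 3. The median of all 20145 promoters was 0.588. Taking the highest value of each gene's promoters, the median was 0.885 for genes with a promoter summit and 0.50 for the others. The Mef2d and Pax7 promoters lay nearer to the second.

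The share of protein-coding genes with a promoter summit was higher in each higher class of this CpG content. It was 1.20% (49 of 4088 genes) where the highest value of a gene's promoters was under 0.25, 3.94% from 0.25 to 0.5 and 18.0% from 0.5 to 0.75. It was 35.8% from 0.75 to 1, and 54.1% (854 of 1578) at 1 or more. Myf5 fell in the lowest of these classes, Myog in the next, Pax7, Mef2c and Mef2d in the middle class and Mef2a in the class above it. Of the 6 genes, the 2 with the lowest CpG content had no promoter summit and the highest had one, while Mef2c, without one, lay above Pax7, with one. The part of promoter composition in these calls was not tested.

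**Figure D4:**
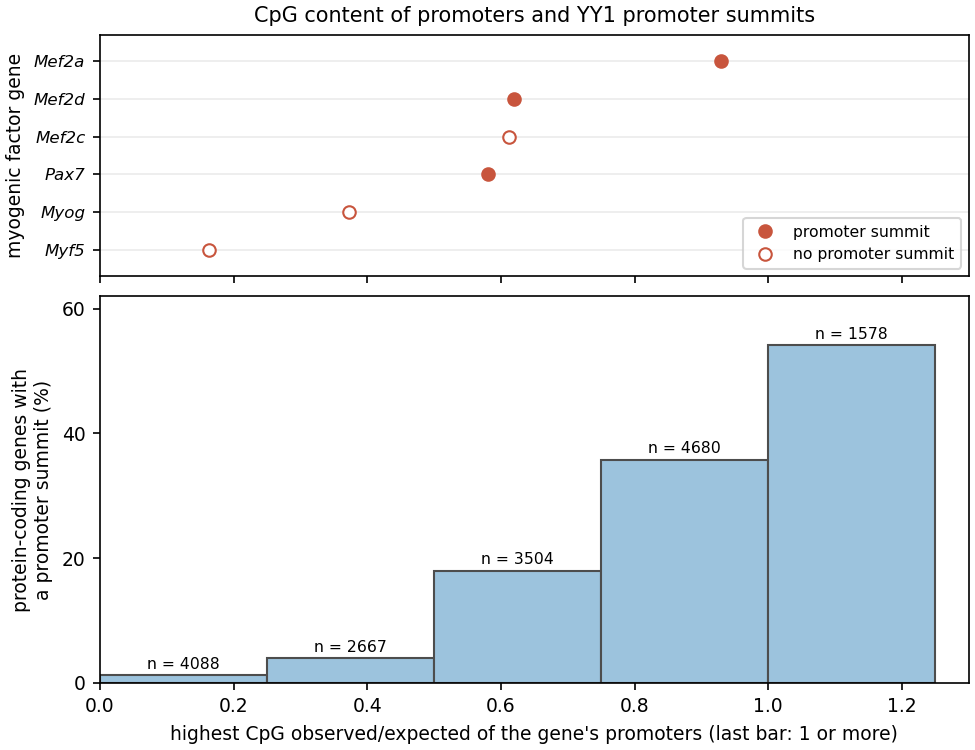
Upper panel, the highest CpG observed over expected among the RefSeq promoters of the 6 matched myogenic factor genes, filled where the gene has a promoter summit. Lower panel, the percent of protein-coding genes with a promoter summit in each class of the same measure, with the number of genes. The filled points of Pax7, Mef2d and Mef2a lie at 0.581, 0.619 and 0.929, and the share of genes with a promoter summit runs from 1.20% to 54.1%.

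The motif AANATGGC was present in 6.47% of all RefSeq promoters and in 0 of the 8 promoters of the myogenic factors. The core ATGGC was present in 38.8% of promoters, with 1 match at Myog and 1 in a promoter of Mef2c. The E-box CANNTG was present in 68.7%. The Myog promoter held 2 E-boxes, the Mef2c promoters 2, 0 and 1, and those of Pax7, Myf5, Mef2a and Mef2d held 0.

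Genes that act with or upstream of the myogenic factors were described in the same way. In 4 lists of such genes and 1 of family paralogs, written with earlier results of these data known, 34 of 86 genes (39.5%) had a promoter summit, beside 18.8% of protein-coding genes. These lists were not tested, and their promoter composition was not matched to that of other genes.

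Among the bHLH partners and inhibitors of the MRFs, 7 of 21 genes (33.3%) had a promoter summit, with a median fold of 5.92 beside 5.13 over all protein-coding genes with one. The highest was at Tcf3, an E protein and dimer partner of the MRFs (18 fragments over 1.54, fold 7.49, 233 bp upstream of a start). It was followed by Tcf12, another E protein (19 over 2.02, fold 6.63, 7 bp upstream). Hey1, a repressor downstream of Notch, and Bhlhe40 shared the next place, each with 14 fragments over 1.54 and a fold of 5.92. Grouped by role after the values were seen, 3 of 3 E protein genes had a summit and 0 of 4 Id genes, whose products sequester E proteins.

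Among the upstream factors, which control Pax or MRF genes in embryo or adult, 5 of 23 genes (21.7%) had a promoter summit, close to the background. The median fold of these 5 was 4.73, beside 5.13 over all protein-coding genes with a promoter summit. The highest were Tead1, a partner of YAP (18 over 1.98, fold 6.39), Lbx1, a homeobox gene of migrating muscle precursors (12 over 1.54, fold 5.13), and Nfix, a regulator of fetal muscle (11 over 1.54, fold 4.73). None (0) of the 8 genes of the sine oculis homeobox and eyes absent families, a grouping also made afterwards, had one.

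Among cofactors of the MEF2 and MRF proteins, 16 of 26 genes (61.5%) had a promoter summit, with a median fold of 5.92. The highest were Prmt5, an arginine methyltransferase (24 over 1.70, fold 9.26), Ncoa2, a nuclear receptor coactivator (20 over 1.54, fold 8.28), and Smarca4, the ATPase of SWI/SNF chromatin remodelling (26 over 2.55, fold 7.61). Of the 4 class IIa histone deacetylase genes, which encode repressors of MEF2, 3 had a summit, again grouped afterwards. Their folds were 6.39 at Hdac4, 5.92 at Hdac5 and 4.34 at Hdac7.

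Among cofactors of PAX3 and PAX7, 6 of 8 genes had a promoter summit, with a median fold of 7.05. Rbbp5, a core subunit of the histone H3 lysine methyltransferase complexes, had the highest of all the lists, with 29 fragments over 1.54 and a fold of 11.8, 218 bp upstream of its start. Kmt2a, a methyltransferase of such complexes, followed with 33 over 1.91 and a fold of 11.7, and Kmt2d with 20 over 1.70 and 7.78. All 3 folds were above those of the Pax7, Mef2a and Mef2d peaks, but these genes were picked as the highest of the list. Not every other gene of the list with a summit exceeded Mef2a and Mef2d.

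The family paralogs that are not myogenic factors had no promoter summit in 8 of 8 cases, namely Pax1, Pax2, Pax4, Pax5, Pax6, Pax8, Pax9 and Mef2b. The nearest summits lay 6.04 kb from a start of Pax5 and 8.18 kb from a start of Mef2b. Those of the other paralogs were 25.4 to 1078 kb away. This count stands beside 18.8% of all protein-coding genes and was not tested.

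**Figure D5:**
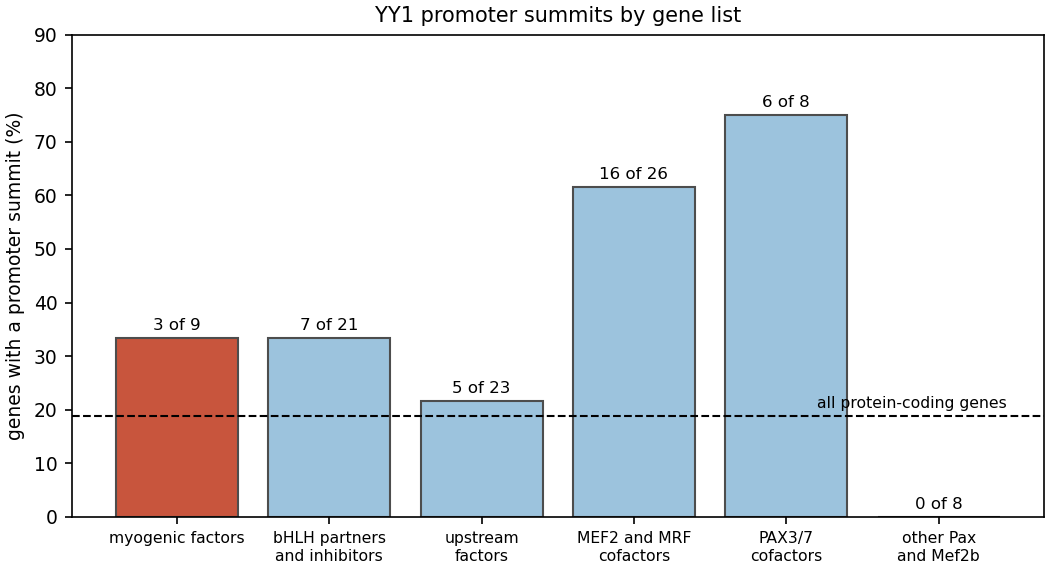
Percent of genes with a YY1 promoter summit in the 9 myogenic factors (red) and in the 5 lists of related genes (blue), with the number of genes above each bar. The dashed line is the 18.8% of all protein-coding genes. The myogenic factors stand at 3 of 9 and the cofactor lists at 16 of 26 and 6 of 8, while the other Pax genes and Mef2b stand at 0 of 8.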

How the data were processed

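YY1 ChIP-seq of MuSCs gave 1 YY1 library and 1 background library, and the peaks of the YY1 library were used. The authors aligned trimmed reads to mm10 using bowtie2, discarded redundant ones and ran MACS2 with a p-value limit of 0.0001 (versions not given in the sources used here). Of the deposited columns, the fold enrichment (a ratio), the −log10 p-value and the −log10 q-value were used. Fold and p together gave the fragments and the local background at each summit, with whole numbers of fragments in 100% of 4681 peaks (tolerance 0.001 on −log10 p). MACS2 takes p from a Poisson model of these libraries, not from variation between animals, and deeper sequencing would let weaker sites pass.

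Summits were placed against transcript starts of GENCODE basic, release M21 (GRCm38). The genes and lists were chosen with earlier results of these data known. Named are the 9 genes, the genes at the nearest summit on each side, and per list at most 3 genes with the highest promoter fold (more where tied) and the paralogs. Subgroups, and with them Hdac4, Hdac5 and Hdac7, as well as Cd68 and Naxe, were chosen after their values were seen. Alternatives were stricter peak limits, other windows, annotations, transcripts and motif forms. Placement, motif search and fragment recovery were tested on simulated data. A sequence at 1 peak is not reported here. Python 3.11.15 was used with pysam 0.24.0, scipy 1.17.1, numpy 2.4.6, matplotlib 3.10.9 and pandas 2.3.3.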

Additional observations from a re-analysis of the deposited data

How the results depend on the processing

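Mef2a and Mef2d had a promoter summit under the reported setting and all 13 alternatives. Pax7 lost its call under 5 of the 13, which left 2 genes of 9: a fold of at least 5, a window of 500 bp either side, a window of 1000 bp upstream to 100 bp downstream, the gene-level 5′ end only, and a local background of at most 40 fragments. The last 2 were chosen after seeing the data and remove Pax7 by construction. Its first start lies 1224 bp from the summit, and its background of 43.5 was known. Windows of 2000 and 5000 bp and RefSeq curated transcripts kept Pax7. Genes with a summit inside numbered 0 instead of 1 at a fold of at least 5, and 3 by any overlap of the whole peak, since the Mef2a and Mef2d peaks reach exon 1. Protein-coding genes with a promoter summit fell from 4119 to 2445 at a fold of at least 5 and reached 3201 to 4475 elsewhere. Of the 86 partner genes, 23 to 37 were called. The median distance was 342828 bp under all 3 alternatives run, and no motif alternative found AANATGGC, AAGATGGC or ATGGC in the Mef2a or Mef2d peaks. Depth limits what an absent peak can show. No paired analysis was possible because the YY1 sample has no replicate and no result comes from a test, and no replicate could be left out.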
